A study of Mus musculus with 4 samples.

Results

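The enzymes that build and recycle the nucleotides of RNA and DNA, and the folate enzymes that feed them with single carbons, were followed in mouse acute myeloid leukemia (AML) cells that did or did not overexpress Suv39h1. The set holds 37 genes, chosen by name from textbook pathways with earlier results of these data known. Each symbol matched exactly 1 of the 23552 gene rows of the deposited expression table. By their step the genes fall into 2 of PRPP supply, 6 of purine ring assembly, 5 of the AMP and GMP branches, 5 of the pyrimidine route, 7 of deoxynucleotide and thymidylate synthesis, 5 of folate one-carbon metabolism, 4 of salvage and 3 nucleotide kinases.

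RNA-seq was run on c-Kit+ leukemic cells, a fraction enriched for leukemia-initiating cells, from the bone marrow of moribund C57BL/6 mice (C57BL/6J in the methods) with leukemia induced by MLL-AF9. MLL-AF9 is a fusion oncogene that the cells of both groups carried. The control group (replicates 3 and 4) overexpressed control-eGFP and the SUV-OE group (replicates 2 and 3) overexpressed Suv39h1-eGFP. Suv39h1 is a methyltransferase that places the repressive histone mark H3K9me3. According to the methods, passaged leukemia cells were transduced with these vectors, sorted for eGFP and injected into sublethally irradiated recipients. Such recipients can keep blood cells of their own. The mice used were 8-week-old females at the start, and the labels give no age at harvest. All 4 libraries carry the same RNA-seq batch label. Nothing in the labels says which libraries came from separate mice, so the p-values measure only the spread between these libraries, which may be technical.

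New purine nucleotides are assembled stepwise on PRPP, an activated ribose phosphate, until inosine monophosphate (IMP) is reached, from which the AMP and GMP branches part. The pyrimidine ring is closed first and joined to PRPP afterwards, giving UMP and then CTP. Ribonucleotide reductase turns ribonucleotides into deoxyribonucleotides, and thymidylate synthase adds the methyl group that makes dTMP. Folate cofactors carry single carbons, mostly from serine, into the purine ring and into dTMP. Salvage enzymes recycle free bases and nucleosides in place of new synthesis. Dividing cells depend on these routes, and antifolates, thiopurines and cytarabine, drugs used against leukemia, act on or through them.

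Values are FPKM, reads scaled by transcript length and by library size, a level that allows genes of the same library to be compared. Pairs of values stand in the order control replicates 3 and 4 and SUV-OE replicates 2 and 3. The depth, recovered from the spacing of low FPKM values, was 19905342 to 23353115 reads a library. Among the 37 genes, all but Nme2 had 254 to 22746 recovered reads in every library. Suv39h1 was at 12.4 and 12.4 FPKM in the controls and at 75.3 and 81.2 FPKM in SUV-OE (log2 fold change 2.56, SE 0.11, limma adjusted p = 0.00866). Kit, the gene of the marker used for enrichment, was detected in all 4 libraries, at 20.4 and 19.2 FPKM in the controls and 28.6 and 25.4 FPKM in SUV-OE.

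The levels spread over a wide range. Aprt was the highest, with a control mean of 361 FPKM, and Hprt, Adssl1, Dtymk, Paics and Shmt2 also exceeded 100 FPKM in the control mean. Dhodh, Dctd, Nme1, Rrm2b and Nme2 were under 10 FPKM in it. The 37 genes summed to 2017 and 1958 FPKM in control replicates 3 and 4 and to 1475 and 1571 FPKM in SUV-OE replicates 2 and 3. Those sums were 0.566% and 0.472% of all FPKM in the controls and 0.433% and 0.421% in SUV-OE. Both SUV-OE libraries were therefore below both controls in the summed level and in its share.

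**Figure D1:**
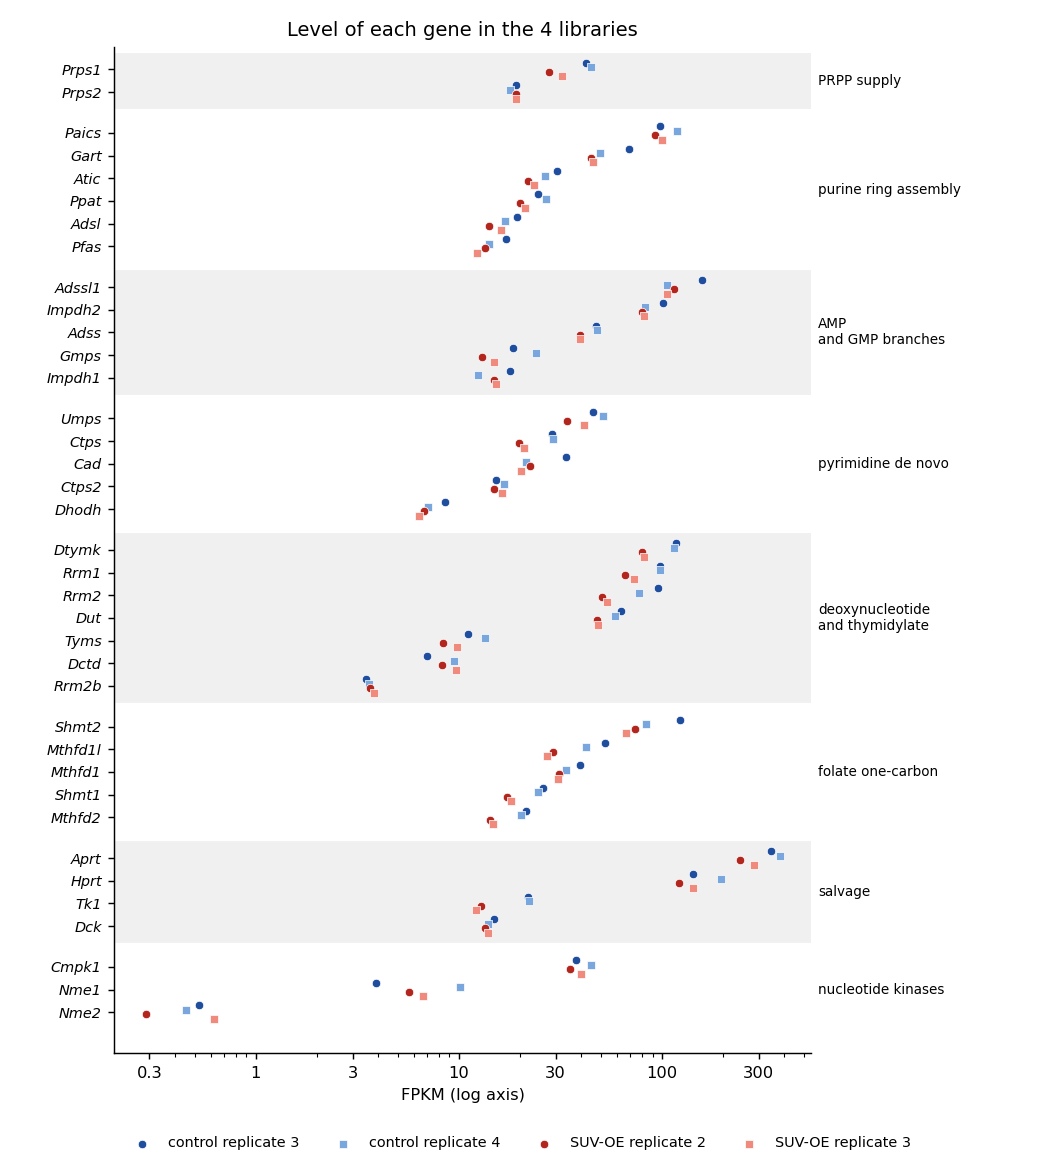
FPKM of each of the 37 genes (log axis) in the 4 libraries, grouped by step; blue marks are the control libraries and red marks the SUV-OE libraries. Both red marks lie to the left of both blue marks for 25 of the 36 tested genes, and Nme2 lies under 1 FPKM in every library.

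Expression of the nucleotide and folate genes leaned low in SUV-OE, but no gene passed the test. Of the 36 genes tested with limma, 32 had a negative log2 fold change and 4 a positive one, whereas 53.0% of all 13736 tested genes were negative. The median was -0.32 (range -0.78 to 0.12), beside -0.02 over all tested genes. In 25 genes (69.4%) both SUV-OE libraries were below both controls, against 28.4% of all tested genes. Only Prps2 and Rrm2b (5.56%) had both SUV-OE libraries above both controls, against 25.4% of all tested genes, and 9 genes overlapped. None had a limma adjusted p under 0.05, which 1.29% of all tested genes had, and none met the additional limit of an absolute log2 fold change of 1, which 1.22% met. At an unadjusted limma p under 0.05, 12 genes were lower in SUV-OE, against 10.4% of all tested genes. Tk1 and Mthfd1l came nearest, with adjusted p = 0.0576 and adjusted p = 0.0995, and an adjusted p under 0.1 was found for 4.85% of all tested genes. With limma-voom on the recovered reads, which called 7.06% of the genes it tested, Tk1 passed (adjusted p = 0.0289).

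Replicates of one group also differed from each other. The median distance between the control libraries over the 36 genes was 0.21 on the log2 scale, beside 0.22 over all tested genes. Between the SUV-OE libraries it was 0.10, beside 0.13 over all tested genes. In 17 of the 36 genes the controls lay farther apart than the group means did, and in 5 the SUV-OE libraries did. The controls did not differ in a single direction, since 20 genes were higher in replicate 3 and 16 in replicate 4. Of the SUV-OE libraries replicate 3 was the higher for 26 genes and replicate 2 for 10.

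The count of separated genes moved with the scaling between libraries. When each library was scaled to its recovered reads, 18 of the 36 genes (50%) had both SUV-OE libraries below both controls, against 19.8% of all tested genes. Under quantile normalization there were 20 (55.6%), against 27.3%. A log2 fold change below 0 was found for 25 of the genes under every setting tried. Of these settings 4 cannot move a fold change, and the matching share of all tested genes was not counted.

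**Figure D2:**
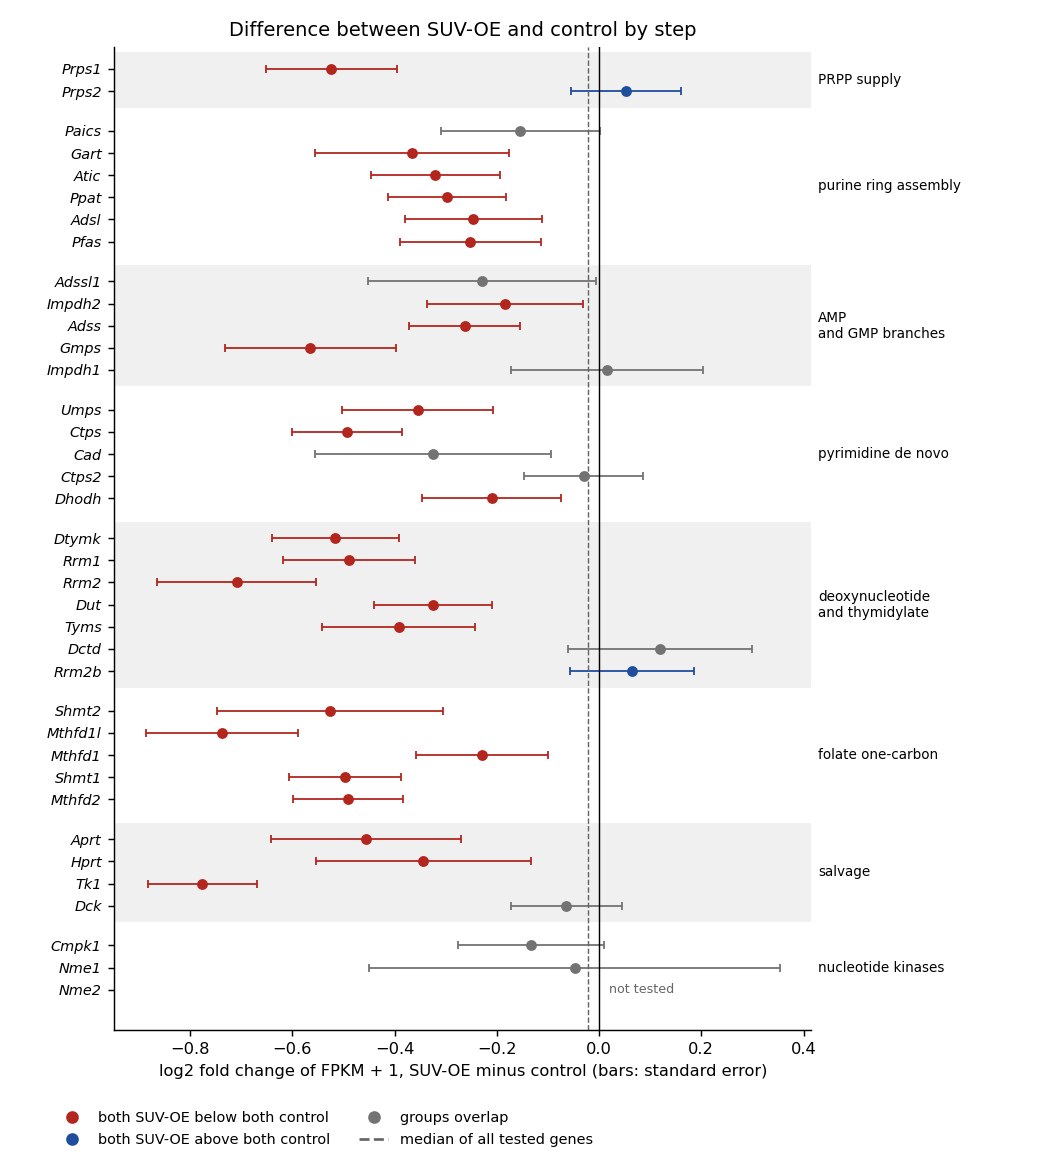
Log2 fold change of FPKM + 1, SUV-OE minus control, for each gene by step, with bars of 1 standard error from limma; the dashed line is the median of all tested genes, at -0.02. Red genes have both SUV-OE libraries below both controls, the 2 blue genes (Prps2 and Rrm2b) have both above, and grey genes overlap; Tk1, Mthfd1l and Rrm2 lie farthest to the left.

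The promoters of the 37 genes were read for letters bound by factors known for growth and nucleotide genes. RefSeq promoter windows of GRCm38.p6, from 250 bases before to 50 after a start, were matched for 34 genes in 42 windows, leaving out Dhodh, Pfas and Rrm2b. An E-box, CACGTG, the core bound by Myc and related factors, lay on either strand in 6 genes (Atic, Dtymk, Impdh2, Nme1, Paics and Tyms; 17.6%), against 12.1% of tested genes and 8.09% of all genes with a window. The CCAAT box, CCAAT, bound by NF-Y, lay in 13 genes (38.2%), against 43.2% of tested and 41.1% of all genes. The NRF1 core, GCATGCGC, lay in Ctps, Ppat and Shmt2 (8.82%), against 6.22% of tested and 3.05% of all genes. Of the E2F letters, TTTCCCGC lay in Ppat and Prps2 (5.88%), against 2.52% of tested genes, and TTTGGCGC in none, against 1.2%. The ATF4 composite letters TGATGCAA lay in none, against 0.772% of tested genes. Of the matched genes with both SUV-OE libraries below both controls, 4 of 23 held the E-box, 10 the CCAAT box and 3 the NRF1 core. Of the other 11 matched genes, 2 held the E-box, 3 the CCAAT box and 0 the NRF1 core.

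Windows of 4 genes with the most matches are printed to show how these letters sit ahead of a start. Ppat was left out because its window lies in exons of Paics, and among genes with 2 matches the order was alphabetical, so Impdh2, Paics and Rrm1 are not shown. Each line gives 250 bases up to the RefSeq start, 5′ to 3′ on the gene's strand, with the matched letters in capitals (ATTGG is CCAAT read on the other strand). Mthfd2 (chr6:83317605-83317854, minus strand) held 3 CCAAT boxes, and its RefSeq start lies inside the longer GENCODE M21 gene model. Atic (chr1:71556906-71557155, plus strand) held a CCAAT box far from the start and an E-box next to it. Dtymk (chr1:93801935-93802184, minus strand) held an E-box and a CCAAT box. Ctps (chr4:120570277-120570526, minus strand) held an NRF1 core matched on both strands in overlapping letters, which were counted as a single match, and its other match lies past the start.
Mthfd2: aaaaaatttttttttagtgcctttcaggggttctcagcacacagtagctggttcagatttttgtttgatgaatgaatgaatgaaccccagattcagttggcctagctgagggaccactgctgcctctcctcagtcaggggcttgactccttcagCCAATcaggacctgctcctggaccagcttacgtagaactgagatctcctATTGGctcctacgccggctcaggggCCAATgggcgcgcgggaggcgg
Atic: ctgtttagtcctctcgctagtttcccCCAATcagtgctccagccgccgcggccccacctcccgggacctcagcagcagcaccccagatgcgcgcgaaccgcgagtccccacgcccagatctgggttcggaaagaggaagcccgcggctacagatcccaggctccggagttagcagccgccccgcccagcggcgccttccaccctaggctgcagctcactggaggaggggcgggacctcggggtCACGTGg
Dtymk: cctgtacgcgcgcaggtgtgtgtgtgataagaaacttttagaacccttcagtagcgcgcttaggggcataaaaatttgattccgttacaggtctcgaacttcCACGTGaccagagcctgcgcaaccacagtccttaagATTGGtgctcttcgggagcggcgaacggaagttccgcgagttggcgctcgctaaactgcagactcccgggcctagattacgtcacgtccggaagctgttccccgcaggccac
Ctps: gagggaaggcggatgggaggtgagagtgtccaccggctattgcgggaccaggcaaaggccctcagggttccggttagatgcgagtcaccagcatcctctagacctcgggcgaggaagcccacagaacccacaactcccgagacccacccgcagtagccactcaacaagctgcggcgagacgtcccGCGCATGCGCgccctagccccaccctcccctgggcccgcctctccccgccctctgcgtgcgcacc

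PRPP supply was split between its synthetases. Prps1 (ENSMUSG00000031432; mm10 chromosome X, 140456613 to 140476140, plus strand), 1 of 2 synthetases on the X chromosome, was at 42.2 and 45.0 FPKM in control replicates 3 and 4 and at 27.96 and 32.2 FPKM in SUV-OE replicates 2 and 3. Both SUV-OE libraries were below both controls, with a log2 fold change of -0.52 (SE 0.13, adjusted p = 0.134). Prps2, the other synthetase, was at 19.03 and 17.8 FPKM in the controls and 19.2 and 19.1 FPKM in SUV-OE. The SUV-OE libraries lay just above the controls, and the log2 fold change was 0.05 (SE 0.11, adjusted p = 0.81), with a 95% interval of -0.23 to 0.33.

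All 6 genes of purine ring assembly had negative log2 fold changes (median -0.27), against 53.0% of all tested genes. In 5 the SUV-OE libraries lay under the lower control, against 28.4% of all tested genes. After scaling to recovered reads 2 did (Ppat and Atic), against 19.8%, and under quantile normalization 4 did, against 27.3%. Ppat, the amidotransferase of the committed step, was at 24.5 and 26.9 FPKM in the controls and 20.1 and 21.3 FPKM in SUV-OE, a log2 fold change of -0.30 (SE 0.12, adjusted p = 0.243). Gart (chromosome 16, 91621186 to 91646952, minus strand), a protein with 3 enzyme activities that include a folate-dependent formyl transfer, was at 69.2 and 49.6 FPKM in the controls and 44.8 and 45.6 FPKM in SUV-OE. Its controls lay far apart, and its log2 fold change was -0.37 (SE 0.19, adjusted p = 0.349), or -0.13 without control replicate 3 and -0.60 without control replicate 4. Pfas, which adds an amide nitrogen from glutamine, was at 17.1 and 14.1 FPKM in the controls and 13.5 and 12.3 FPKM in SUV-OE, a log2 fold change of -0.25 (SE 0.14, adjusted p = 0.374). Paics, which carboxylates the ring and joins aspartate to it, was among the highest of the set at 98.0 and 118 FPKM in the controls and 92.9 and 100.4 FPKM in SUV-OE. For Paics the groups overlapped, and the log2 fold change was -0.15. Adsl, which releases fumarate here and again in the AMP branch, was at 19.4 and 17.0 FPKM in the controls and 14.1 and 16.2 FPKM in SUV-OE, a log2 fold change of -0.25 (SE 0.13, adjusted p = 0.37). Atic, which closes the ring with the other folate-borne carbon, was at 30.6 and 26.6 FPKM in the controls and 21.8 and 23.5 FPKM in SUV-OE. Both SUV-OE libraries were under the lower control, with a log2 fold change of -0.32 (SE 0.13, adjusted p = 0.251). Ppat and Paics share 272 exon bases on opposite strands, and Gart shares 19.7% of its exon bases with an antisense gene. In all, 13 of the 37 genes share exon bases with another gene, 10 of them with a gene on the other strand. The library kit does not mark strand, so reads in such bases cannot be assigned.

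In the branches from IMP, 4 of 5 genes had a negative log2 fold change (median -0.23), against 53.0% of all tested genes. In 3 both SUV-OE libraries lay under the lower control, against 28.4% of all tested genes. Under quantile normalization, with limma-voom and after scaling to recovered reads 2 did, without Impdh2, against 27.3%, 19.7% and 19.8% of the genes tested. Gmps (chromosome 3, 63976106 to 64022579, plus strand), which makes GMP from XMP, had the largest of these, at 18.5 and 24.0 FPKM in the controls and 13.0 and 15.0 FPKM in SUV-OE. Its SUV-OE libraries were both below the lower control, with a log2 fold change of -0.57 (SE 0.17, adjusted p = 0.17). Impdh2, the inosine monophosphate dehydrogenase of dividing cells, was at 101 and 82.7 FPKM in the controls and 79.4 and 81.6 FPKM in SUV-OE. The gap to the lower control was small, and the log2 fold change was -0.18 (SE 0.15, adjusted p = 0.542). Impdh1, the other dehydrogenase, was at 17.9 and 12.5 FPKM in the controls and 15.0 and 15.3 FPKM in SUV-OE, with a log2 fold change of 0.02 (SE 0.19, adjusted p = 0.973) and an interval of -0.47 to 0.50. Adss, which commits IMP to AMP, was at 47.2 and 47.8 FPKM in the controls and 39.4 and 39.4 FPKM in SUV-OE. Replicates of Adss lay close together in both groups, and the log2 fold change was -0.26 (SE 0.11, adjusted p = 0.266). Adssl1, known as the muscle form of that enzyme, was the higher in all 4 libraries, at 157 and 107 FPKM in the controls and 114 and 106 FPKM in SUV-OE. Its groups overlapped, with a log2 fold change of -0.23 (SE 0.22, adjusted p = 0.6).

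In the pyrimidine route all 5 genes had negative log2 fold changes (median -0.325), against 53.0% of all tested genes. In 3 the SUV-OE libraries lay under the lower control, against 28.4% of all tested genes. With limma-voom or after scaling to recovered reads 2 did, without Dhodh, against 19.7% and 19.8% of the genes tested. Cad, the large protein that runs the opening reactions, was at 33.6 and 21.5 FPKM in the controls and 22.4 and 20.2 FPKM in SUV-OE. Control replicate 3 stood apart for Cad, the groups overlapped, and the log2 fold change was -0.33, or -0.01 without that library and -0.64 without control replicate 4. Dhodh, the mitochondrial dehydrogenase that makes orotate, was at 8.55 and 7.06 FPKM in the controls and 6.77 and 6.40 FPKM in SUV-OE, a log2 fold change of -0.21 (SE 0.14, adjusted p = 0.44). Umps (chromosome 16, 33954782 to 33967038, minus strand), which turns orotate into UMP, was at 45.9 and 51.2 FPKM in the controls and 34.2 and 41.5 FPKM in SUV-OE, with a log2 fold change of -0.36 (SE 0.15, adjusted p = 0.269). CTP is made from UTP by Ctps and Ctps2. Ctps (ENSMUSG00000028633; chromosome 4, 120539868 to 120570276, minus strand) was at 28.9 and 29.2 FPKM in the controls and 19.9 and 20.9 FPKM in SUV-OE. The controls agreed closely and the SUV-OE libraries were both below them, with a log2 fold change of -0.49 (SE 0.11, adjusted p = 0.11). Ctps2 was at 15.3 and 16.6 FPKM in the controls and 14.9 and 16.3 FPKM in SUV-OE, with overlapping groups and a log2 fold change of -0.03 (SE 0.12, adjusted p = 0.904).

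Among the 7 genes of deoxynucleotide and thymidylate synthesis (median -0.39), the 5 with a negative log2 fold change all had both SUV-OE libraries below both controls. Of all tested genes 28.4% did. The same 5 lay below both controls under quantile normalization, against 27.3% of all tested genes, and after scaling to recovered reads, against 19.8%. Rrm2 (ENSMUSG00000020649; chromosome 12, 24708241 to 24714146, plus strand), the small subunit of ribonucleotide reductase that is made in S phase, was at 95.8 and 77.2 FPKM in the controls and 50.6 and 53.9 FPKM in SUV-OE. The SUV-OE mean was 39.6% lower, with a log2 fold change of -0.71 (SE 0.16, adjusted p = 0.112) and a 95% interval of -1.11 to -0.31. Rrm1, the large subunit with the catalytic site, was at 97.5 and 97.4 FPKM in the controls and 65.6 and 73.0 FPKM in SUV-OE, a log2 fold change of -0.49 (SE 0.13, adjusted p = 0.149). Rrm2b, the small subunit known to be induced by p53 outside S phase, was low in all 4 libraries at 3.47 and 3.61 FPKM in the controls and 3.66 and 3.84 FPKM in SUV-OE. Rrm2b had a log2 fold change of 0.06 (SE 0.12, adjusted p = 0.795), with an interval of -0.25 to 0.38. Dtymk, the kinase that makes dTDP from dTMP, was at 117 and 114 FPKM in the controls and 79.8 and 81.5 FPKM in SUV-OE. Its replicates lay close in both groups, and the log2 fold change was -0.52 (SE 0.12, adjusted p = 0.133). Tyms, thymidylate synthase, was at 11.1 and 13.4 FPKM in the controls and 8.36 and 9.85 FPKM in SUV-OE, a log2 fold change of -0.39 (SE 0.15, adjusted p = 0.24). Dut, which clears dUTP and so supplies dUMP, was at 62.8 and 58.6 FPKM in the controls and 48.1 and 48.3 FPKM in SUV-OE, a log2 fold change of -0.33 (SE 0.12, adjusted p = 0.219). Dctd, which also supplies dUMP by deaminating dCMP, was at 6.95 and 9.48 FPKM in the controls and 8.23 and 9.65 FPKM in SUV-OE. The groups of Dctd overlapped, with a log2 fold change of 0.12 (SE 0.18, adjusted p = 0.737).

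At the deposited scaling all 5 folate genes had both SUV-OE libraries below both controls, against 28.4% of all tested genes, with a median log2 fold change of -0.50. With limma-voom or after scaling to recovered reads 4 did, Mthfd1 being the exception, against 19.7% and 19.8% of the genes tested. Under quantile normalization 3 did, without Mthfd1 and Shmt2, against 27.3%. No test set the steps against each other. Mthfd1l (ENSMUSG00000040675; chromosome 10, 3973118 to 4167081, plus strand), which releases formate from the mitochondrion, was at 52.8 and 42.5 FPKM in the controls and 29.0 and 27.1 FPKM in SUV-OE. The SUV-OE mean was 41.1% lower, with a log2 fold change of -0.74 (SE 0.15, adjusted p = 0.0995) and a 95% interval of -1.12 to -0.35. Mthfd2 (chromosome 6, 83305691 to 83325908, minus strand), a mitochondrial folate dehydrogenase upstream of it, was at 21.4 and 20.2 FPKM in the controls and 14.3 and 14.8 FPKM in SUV-OE. Replicates lay close within each group, and the log2 fold change was -0.49 (SE 0.11, adjusted p = 0.113). Mthfd1, the cytosolic protein that takes formate back into folates, was at 39.7 and 33.6 FPKM in the controls and 31.2 and 30.9 FPKM in SUV-OE, a log2 fold change of -0.23 (SE 0.13, adjusted p = 0.388). Shmt2 (chromosome 10, 127517123 to 127522444, minus strand), the mitochondrial enzyme that takes the carbon from serine, was the highest of the 5 at 123 and 83.4 FPKM in the controls and 73.9 and 66.3 FPKM in SUV-OE. Its controls differed more between them than the lower control did from SUV-OE, and the log2 fold change was -0.53 (SE 0.22, adjusted p = 0.269). It was -0.25 without control replicate 3 and -0.80 without control replicate 4. Shmt1, its cytosolic partner, was at 26.0 and 24.7 FPKM in the controls and 17.2 and 18.1 FPKM in SUV-OE, a log2 fold change of -0.50 (SE 0.11, adjusted p = 0.112).

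Salvage held the gene nearest to the threshold. Tk1 (ENSMUSG00000025574; chromosome 11, 117815526 to 117826092, minus strand), the cytosolic thymidine kinase of S phase, was at 21.9 and 22.2 FPKM in control replicates 3 and 4 and at 12.8 and 12.1 FPKM in SUV-OE replicates 2 and 3. The groups stood well apart, with an SUV-OE mean 43.5% lower, a log2 fold change of -0.78 (SE 0.11, adjusted p = 0.0576) and a 95% interval of -1.05 to -0.50. With the other settings on all 4 libraries its adjusted p ran from 0.0289 to 0.115. Aprt (chromosome 8, 122574635 to 122576909, minus strand), which salvages adenine, was at 343 and 379.6 FPKM in the controls and 243 and 285 FPKM in SUV-OE, a log2 fold change of -0.46 (SE 0.19, adjusted p = 0.26). Hprt, which salvages hypoxanthine and guanine, was at 143 and 195 FPKM in the controls and 121 and 142 FPKM in SUV-OE. The higher SUV-OE library came close to the lower control, and the log2 fold change was -0.34 (SE 0.21, adjusted p = 0.413), or -0.12 without control replicate 4 and -0.57 without control replicate 3. The groups of Hprt overlapped under quantile normalization, with limma-voom and after scaling to recovered reads. Dck, the kinase that activates deoxycytidine and cytarabine, was at 14.9 and 13.9 FPKM in the controls and 13.5 and 13.97 FPKM in SUV-OE, with overlapping groups and a log2 fold change of -0.06 (interval -0.35 to 0.22).

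The nucleotide kinases showed no separation. Cmpk1, which phosphorylates UMP and CMP, was at 38.0 and 44.7 FPKM in the controls and 35.3 and 39.9 FPKM in SUV-OE, with overlapping groups and a log2 fold change of -0.13. Nme1, a nucleoside diphosphate kinase, was at 3.91 and 10.1 FPKM in the controls and 5.68 and 6.65 FPKM in SUV-OE, and both SUV-OE values lay between the controls. Its log2 fold change was -0.05 (SE 0.40, adjusted p = 0.959). Nme2, the neighbouring kinase, was at 0.527 and 0.456 FPKM in the controls and 0.289 and 0.624 FPKM in SUV-OE, from 6 to 13 reads a library, and was left out of the test by the filter on low values. Both Nme genes share exon bases with a read-through gene on the same strand (12.5% of Nme1 and 48.9% of Nme2), which was not analysed here, so both levels are uncertain.

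**Figure D3:**
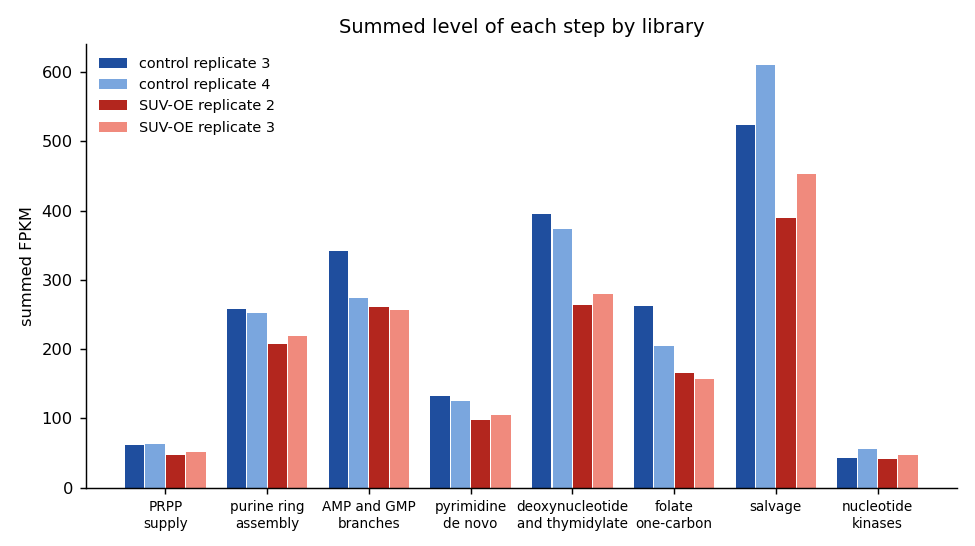
Summed FPKM of the genes of each step in the 4 libraries; bars start at 0. Both SUV-OE bars are below both control bars in every step except the nucleotide kinases, and the folate step has 262.7 and 204.4 FPKM in the controls and 165.5 and 157.1 FPKM in SUV-OE.

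Summed by step, the deoxynucleotide and thymidylate genes had 394.8 and 374.1 FPKM in the controls and 264.4 and 280.0 FPKM in SUV-OE. Salvage summed to 523.2 and 610.3 FPKM in the controls and 390.1 and 453.2 FPKM in SUV-OE, most of it Aprt. Purine ring assembly summed to 258.7 and 252.3 FPKM against 207.2 and 219.4 FPKM. Both SUV-OE sums were below both controls in these steps. The AMP and GMP branches were closer, at 273.5 FPKM in the lower control and 261.1 FPKM in the higher SUV-OE library. For the nucleotide kinases the sums overlapped.

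Enzymes with an alternative form were also compared as ratios within a library, which no scaling of that library can change. In 5 of 8 pairs the ratios of the groups did not overlap, which is to be read beside the 28.4% of all tested genes that lay below and the 25.4% that lay above both controls by their own level. For 2 against 2 libraries the exact two-sided permutation test gives p = 0.333 at the smallest, and these 5 pairs reached it (0.533 after adjustment over the 8 pairs). Rrm2 exceeded Rrm2b 27.6- and 21.4-fold in the controls and 13.8- and 14-fold in SUV-OE, a log2 difference of -0.80. Prps1 over Prps2 was 2.22 and 2.53 in the controls and 1.46 and 1.69 in SUV-OE, a log2 difference of -0.59. Ctps over Ctps2 was 1.89 and 1.76 in the controls and 1.33 and 1.28 in SUV-OE, a log2 difference of -0.48. In these pairs the ratio was lower in both SUV-OE libraries than in either control. Mthfd1 over Mthfd1l was 0.753 and 0.791 in the controls and 1.07 and 1.14 in SUV-OE, a log2 difference of 0.52. Whether a ratio lies above or below 1 depends on the transcript length used, and Mthfd1 gave whole reads at 3324 bases, not at its GENCODE M21 exon length of 4442 bases. The difference between groups does not depend on it. Impdh1 over Impdh2 was 0.176 and 0.151 in the controls and 0.188 and 0.187 in SUV-OE, a log2 difference of 0.20 beside an SD of 0.16 between the controls. The ratios overlapped for Adss over Adssl1, Shmt1 over Shmt2 and Nme1 over Nme2.

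**Figure D4:**
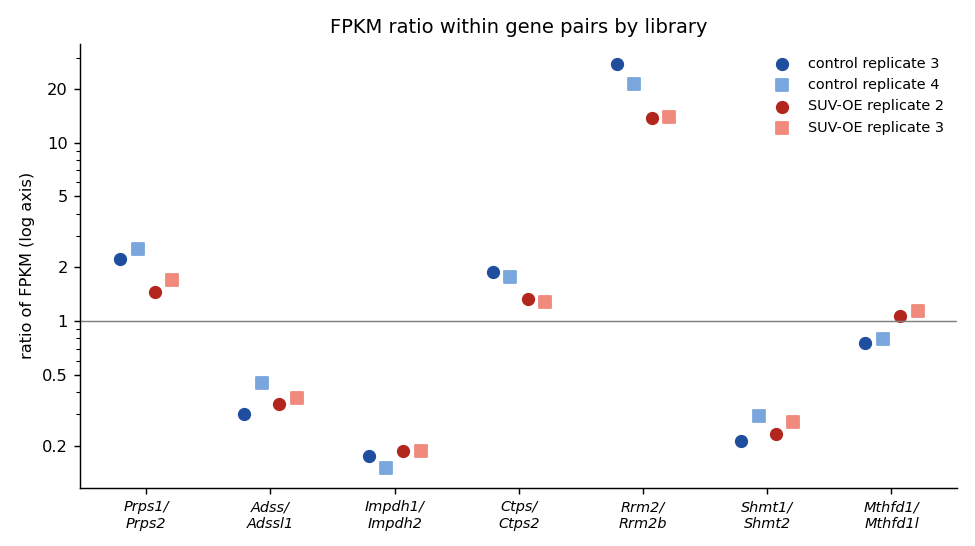
Ratio of FPKM between the genes of 7 pairs (log axis) in the 4 libraries; the Nme pair is not drawn. Rrm2/Rrm2b is over 20 in the controls and about 14 in SUV-OE, Mthfd1/Mthfd1l is higher in SUV-OE, and Adss/Adssl1 and Shmt1/Shmt2 overlap.

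Genes around these routes were taken from lists named by function. None of their genes passed an adjusted p under 0.05. Their counts stand beside 53.0% negative, 28.4% below and 25.4% above both controls among all tested genes, and no test set a list against those shares. All 7 pentose phosphate genes, the route that makes the ribose, had negative log2 fold changes (median -0.30), and in 6 the SUV-OE libraries lay under the lower control. Pgls, its lactonase, was at 39.97 and 36.7 FPKM in the controls and 24.1 and 24.4 FPKM in SUV-OE, a log2 fold change of -0.64 (SE 0.11, adjusted p = 0.0829). Tkt, transketolase, was at 144 and 104 FPKM in the controls and 98.4 and 96.6 FPKM in SUV-OE, a log2 fold change of -0.32 (SE 0.20, adjusted p = 0.412). Of 18 tested genes of folate uptake, reduction and methyl use, 13 were negative (median -0.28) and 11 were below both controls. Fpgs, which adds glutamates that hold folates and methotrexate in the cell, was at 13.6 and 9.21 FPKM in the controls and 6.31 and 6.26 FPKM in SUV-OE, a log2 fold change of -0.74 (SE 0.20, adjusted p = 0.149). Of 7 tested serine and glycine genes 4 were negative (median -0.25), and 3 were below both controls. Psat1, of serine synthesis, was at 67.9 and 70.5 FPKM in the controls and 51.1 and 51.2 FPKM in SUV-OE, a log2 fold change of -0.43 (SE 0.12, adjusted p = 0.151). Dld, a subunit of the glycine cleavage system, was at 71.2 and 89.4 FPKM in the controls and 56.9 and 65.5 FPKM in SUV-OE, a log2 fold change of -0.38 (SE 0.17, adjusted p = 0.291).

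The other salvage enzymes and kinases were nearer to all genes, with 11 of 17 negative (median -0.10), 7 below both controls and 4 above. Nme6, another diphosphate kinase, was at 11.97 and 16.9 FPKM in the controls and 8.502 and 10.5 FPKM in SUV-OE, a log2 fold change of -0.54 (SE 0.20, adjusted p = 0.234). Nucleotide breakdown held genes on both sides, with 13 of 19 negative (median -0.18), 9 below and 3 above both controls. Nt5e, the surface enzyme that makes adenosine from AMP, was at 0.385 and 0.458 FPKM in the controls and 1.92 and 2.13 FPKM in SUV-OE. It was higher in both SUV-OE libraries, with a log2 fold change of 1.09 (SE 0.16, adjusted p = 0.0585). Xdh, which makes uric acid, was at 2.05 and 2.77 FPKM in the controls and 5.43 and 4.92 FPKM in SUV-OE, also higher in both, with a log2 fold change of 0.86 (SE 0.16, adjusted p = 0.0872). Of 4 tested nucleoside transporters 1 was negative. Slc28a2, a sodium-coupled nucleoside carrier, was at 41.6 and 47.0 FPKM in the controls and 31.7 and 34.2 FPKM in SUV-OE, a log2 fold change of -0.42 (SE 0.13, adjusted p = 0.177). Slc29a1, the equilibrative carrier that also brings in cytarabine, was at 14.3 and 14.1 FPKM in the controls and 16.3 and 17.1 FPKM in SUV-OE, a log2 fold change of 0.22 (SE 0.11, adjusted p = 0.318).

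Of 13 tested regulators of these genes 7 were negative (median -0.06), and by separation of the libraries 2 were below and 2 above both controls. Atf4, a regulator of serine and mitochondrial folate genes, was at 221 and 166 FPKM in the controls and 102 and 131 FPKM in SUV-OE, a log2 fold change of -0.73 (SE 0.22, adjusted p = 0.179). Mxd1, which opposes Myc at E-boxes, was at 5.52 and 4.89 FPKM in the controls and 8.78 and 8.46 FPKM in SUV-OE, a log2 fold change of 0.64 (SE 0.12, adjusted p = 0.0923). Myc itself was at 59.2 and 45.4 FPKM in the controls and 58.8 and 53.6 FPKM in SUV-OE, with overlapping groups and a log2 fold change of 0.11 (interval -0.33 to 0.55). E2f1, a regulator of S-phase genes, was at 40.5 and 29.0 FPKM in the controls and 25.0 and 27.7 FPKM in SUV-OE, a log2 fold change of -0.37 (SE 0.19, adjusted p = 0.349). The other E2f genes of the list did not share a sign. E2f2 was at 9.94 and 7.42 FPKM in the controls and 8.39 and 10.02 FPKM in SUV-OE, a log2 fold change of 0.09 (SE 0.18, adjusted p = 0.818), and E2f3 at 8.31 and 7.29 FPKM in the controls and 9.98 and 8.96 FPKM in SUV-OE, a log2 fold change of 0.25 (SE 0.13, adjusted p = 0.342), with both SUV-OE libraries above both controls. E2f4 was at 44.4 and 38.7 FPKM in the controls and 40.1 and 35.8 FPKM in SUV-OE, with overlapping groups and a log2 fold change of -0.13 (SE 0.14, adjusted p = 0.64).

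Of 30 genes of DNA replication, which uses the products of these routes, none passed the test (smallest adjusted p = 0.107). All 30 had negative log2 fold changes (median -0.39), against 53.0% of all tested genes, and in 25 (83.3%) both SUV-OE libraries lay below both controls, against 28.4%. Their sum was 1804 and 1631 FPKM in the controls and 1201 and 1358 FPKM in SUV-OE. Mcm7, of the replicative helicase, was at 134 and 111 FPKM in the controls and 74.5 and 82.5 FPKM in SUV-OE, a log2 fold change of -0.63 (SE 0.16, adjusted p = 0.139). Fen1, which trims Okazaki fragments, was at 2.04 and 1.88 FPKM in the controls and 1.02 and 0.929 FPKM in SUV-OE, a log2 fold change of -0.58 (SE 0.15, adjusted p = 0.139). Markers of other blood cells also differed between the libraries. The counts given for them are of tested genes and stand beside 25.4% above both controls among all tested genes. No test set a list against that share, and the sums also take in listed genes that were not tested. The 8 late neutrophil markers, all with both SUV-OE libraries above both controls, summed to 749 and 2371 FPKM in the controls and to 6629 and 8076 FPKM in SUV-OE, and of them Ltf passed the test (adjusted p = 0.0434). B-lymphoid markers (6 of 7 above) summed to 18.5 and 27.5 FPKM in the controls and 35.8 and 79.4 FPKM in SUV-OE. Most of the control sum was Cd79b, at 17.4 and 25.0 FPKM in the controls and 17.2 and 23.4 FPKM in SUV-OE, with overlapping groups. Mast and basophil markers (2 of 3 above) summed to 37.8 and 65.2 FPKM against 130.5 and 116.9 FPKM, and megakaryocyte markers (3 of 5 above) to 7.85 and 14.2 FPKM against 24.6 and 28.7 FPKM. Pecam1, the only endothelial marker tested, was above in both and passed (adjusted p = 0.0405), at 16.7 and 23.3 FPKM against 70.3 and 64.1 FPKM. The other endothelial markers were too low to be tested. Cdh5 was at 0.232 and 0.491 FPKM in the controls and 0.848 and 0.381 FPKM in SUV-OE, with overlapping groups. Kdr and Emcn were at 0.181 FPKM or less in every library. Erythroid markers (3 of 8 above) summed to 14.6 and 139.3 FPKM in the controls and 98.2 and 68.5 FPKM in SUV-OE. Monocyte and macrophage markers (4 of 5 above) summed to 355.6 and 640.4 FPKM against 352.8 and 383.9 FPKM. Most of that was Ly6c2, which lay below both controls, at 280.9 and 544.7 FPKM against 229.3 and 268.6 FPKM. T and NK markers (1 of 2 above) summed to 73.7 and 113.2 FPKM against 77.5 and 83.5 FPKM. Most of that was Nkg7, at 73.0 and 112.1 FPKM against 75.5 and 82.3 FPKM, with overlapping groups. No marker was at 0 in all 4 libraries, but Cd3e, Cd8a and Fcer1a, like Kdr and Emcn, were at 0.181 FPKM or less in each. Cd8a and Fcer1a were at 0 in both controls. The part of replication or of these cell types in the levels of the nucleotide and folate genes was not tested, and in bulk samples fewer cells of a type and less RNA per cell cannot be told apart.

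**Figure D5:**
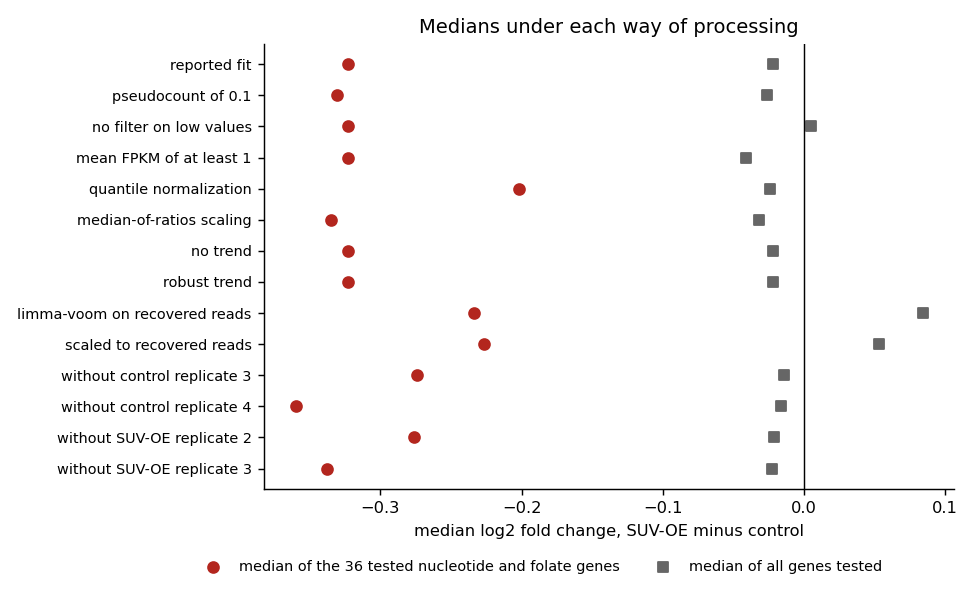
Median log2 fold change of the 36 tested nucleotide and folate genes (red circles) and of all tested genes (grey squares) under each way of processing. The red median runs from -0.36 to -0.20 and lies to the left of the grey one in every setting drawn.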

How the data were processed

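RNA-seq libraries (TruSeq RNA v2) of 2 control and 2 SUV-OE samples were base-called with CASAVA 1.8 and aligned to mm10 with TopHat2, per the submitters' processing notes. The values the authors deposited are FPKM per gene, for each library separately. The paper names Cufflinks for the FPKM, and the annotation release is not given in the sources used here. The authors' DESeq2 test needs counts and was not the test here.

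Gene symbols came from GENCODE M21 (mm10), which named 23438 of 23552 genes. A gene was tested if its mean over the libraries reached 0.5 FPKM (13736 genes), and log2(FPKM + 1) was compared with limma 3.58.1 in R 4.3.3, with an intensity trend, group as the only term and Benjamini-Hochberg adjustment over all of them, after the fit was tested on simulated data. Fold changes on this scale understate the change of low genes. A DEG had an adjusted p under 0.05 and a log2 fold change of 1 or more in size.

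At the M21 exon length the FPKM gave whole reads in all 4 libraries for 78.5% of genes (tolerance 0.01). The deposited FPKM used library sizes smaller than the recovered 19905342 to 23353115 reads in all 4 libraries. FPKM of 3 reads on 1 kb was 0.154 to 0.178, which covers counting error only. Recovered reads entered limma-voom and, as an alternative added after seeing the data, a rescaling.

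The genes and lists were chosen with earlier results of these data known. All 37 genes are reported. Of each pathway list the tested genes with the largest absolute log2 fold change among those whose groups do not overlap were named, at most 2 per list. Some genes that this rule takes are not reported here. Myc, E2f1, E2f2, E2f3 and E2f4 were named in addition, after their values were seen. Promoters printed are those of up to 4 genes with the most motif matches in 300 bases, leaving out Ppat, whose window lies in exons of Paics, with ties in alphabetical order. Other settings tried were another pseudocount, filter, trend and scaling, limma-voom and each library left out.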

Additional observations from a re-analysis of the deposited data

How the results depend on the processing

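The filters and the trend settings, 4 alternatives, cannot move a fold change. Of 324 values of single genes under the other 9 alternatives that gave them, 306 kept their direction and 18, in 10 genes, were reversed. The reversed log2 fold changes were, under quantile normalization, 0.046 for Paics, 0.023 for Impdh2, 0.037 for Ctps2, -0.024 for Rrm2b and 0.004 for Cmpk1. With limma-voom they were 0.066 for Ctps2, 0.028 for Dck and 0.081 for Nme1, and after scaling to recovered reads, chosen after seeing the data, 0.060 for Ctps2, 0.026 for Dck and 0.033 for Nme1. With 1 library left out the values ran from -0.505 to 0.048 for Adssl1 and from -0.079 to 0.319 for Dctd, both reversed without control replicate 3. They ran from -0.228 to 0.257 for Impdh1, reversed without control replicate 4, and from -0.089 to 0.029 for Ctps2 and from -0.638 to 0.543 for Nme1, both reversed without control replicate 4 and without SUV-OE replicate 2. None of these genes passed the test, and the cause was not tested.

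The median log2 fold change of the 36 genes, -0.32, was -0.20 under quantile normalization, -0.23 with limma-voom and -0.23 after scaling to recovered reads, while the median of all genes moved to 0.08 and 0.05 in the last pair. With 1 library left out it ran from -0.36 to -0.27, and the genes with both groups separated downwards were 27 to 29 (36.4% to 43.7% of all tested genes, against 28.4% with all 4 libraries, since a lone library separates more easily). Leaving out 1 library moved the log2 fold change of 20 of the 36 genes by over 1.5 times (Adsl, Adssl1, Cad, Cmpk1, Ctps2, Dck, Dctd, Dhodh, Gart, Hprt, Impdh1, Impdh2, Mthfd1, Nme1, Paics, Pfas, Prps2, Rrm2b, Shmt2 and Umps). Genes with an adjusted p under 0.05 were 0 in the reported fit, 1 with limma-voom (Tk1) and 2 at an adjusted p under 0.1 (4.85% of all tested genes). No nucleotide or folate gene was a DEG under any alternative. With 1 library left out limma called 0 of all genes (1166 to 3877 at an unadjusted p under 0.05), and without the filter 0 (4177), against 177. In those fits the lone library of a group was assumed to vary like the other group. The adjusted p of Tk1 then ran from 0.123 to 0.442 and that of Mthfd1l from 0.123 to 0.537. No paired analysis was possible because a block needs at least 2 shared replicate numbers and control and SUV-OE have 1 in common.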
